A study of Mus musculus with 4 samples.

Results

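The interleukin-1 receptor family is described here by 7 genes: Il1r1, Il1r2, Il1rl1, Il1rl2, Il18r1, Il18rap and Il1rap, which were taken by name from 28032 listed genes with an exon length. They were chosen with their genotype values in these libraries already known, so those values are given as a description, with no p-value. All 7 had reads in at least 3 of the 4 libraries, and 5 passed the filter on low counts, the exceptions being Il1r1 and Il1rl2. Messenger RNA was sequenced from CD4+Foxp3+ regulatory T cells (Tregs) sorted from C57BL/6 mice aged 8 weeks, either wild type (WT) or Csnk2b-deficient, labelled Csnk2b-/-. Csnk2b encodes the beta subunit of the kinase CK2, which regulates the enzyme. Spleen Tregs gave 1 library per genotype (replicate 1), and Tregs of the tracheal lymph nodes (tLN), which receive lymph from the airways, gave 1 library per genotype (replicate 2). The labels do not give the allele, the Cre driver or any pooling of animals, and with 1 library per genotype and tissue no spread between like libraries could be measured.

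The libraries held 4737814 to 6750695 exon reads, with reads in 12157 genes in WT tLN Tregs and in 14335 to 15515 genes in the others. Levels are given as CPM, exon reads relative to library size scaled by TMM factors. Csnk2b had 82.3 CPM in WT and 25.6 CPM in Csnk2b-deficient splenic Tregs, and 163 and 62.0 CPM in tLN Tregs, so its reads were fewer but not absent. All 8 markers of T cells and Tregs had reads in every library. Foxp3, the transcription factor that defines Tregs, had 811 and 374 CPM in splenic Tregs and 570.5 and 123 CPM in tLN Tregs (WT and Csnk2b-deficient). Of its reads 25.9% were uniquely placed, and these numbered 1633 and 773 in splenic and 340 and 219 in tLN libraries. The fold of its exon-exon reads was 0.644 and 0.563, in place of 0.461 and 0.216 over all exon reads. Its intron reads ran the other way, with folds of 1.54 (95% exact binomial interval 1.43 to 1.65) and 1.24 (0.980 to 1.56). By genotype edgeR called Foxp3 lower, at -1.66 ± 0.25 on the log2 scale (adjusted p = 0.0375). With uniquely placed reads 0 genes were called lower. Whether Foxp3 bears on the receptor values was not tested.

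Receptors of this family have immunoglobulin-like domains outside the cell and, in the signalling members, a Toll/interleukin-1 receptor (TIR) domain inside it. A ligand-binding chain (IL1R1 for interleukin-1, IL1RL1, also called ST2, for interleukin-33, IL1RL2 for interleukin-36 and IL18R1 for interleukin-18) pairs with an accessory chain, which is IL18RAP for interleukin-18 and IL1RAP for the others. The pair recruits the adaptor MyD88 and IRAK kinases and activates NF-kappaB and MAP kinases. IL1R2 binds interleukin-1 but lacks the TIR domain and acts as a decoy. Tregs that carry ST2 are known from barrier tissues, where interleukin-33 released by damaged cells expands them.

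The genes other than Il1rap lie on chromosome 1 in the order Il1r2, Il1r1, Il1rl2, Il1rl1, Il18r1 and Il18rap, over 467 kb (mm9, chr1:40141613-40608550). Il1rl1 (chr1:40486415-40522260) and Il18r1 (chr1:40522397-40557699) are only 136 bases apart, while 99860 bases separate Il1r2 from Il1r1. Il1rap lies on chromosome 16 (chr16:26581790-26730203). RefSeq lists start sites for all 7 genes on GRCm38.p6, a different build from the files. Stretches before 4 of these starts are shown, because 3 of the genes (Il1rl1, Il18rap and Il1r2) had more reads in Csnk2b-deficient Tregs and the other one, Il1rl2, lies between them almost without reads. The windows of Il18r1, which had more reads too, are not shown. They overlap exons of Il1rl1 or Il18r1, and they hold no match to the motifs marked below. All of the stretches shown hold a match, so they are no sample of the members. Each is printed 5′ to 3′ on the plus strand, with capitals for matches to AGATAA, a motif of GATA factors, or to its variant TGATAA, and to GGAANTTCC (a palindromic form of the NF-kappaB motif), searched on both strands. These motifs were picked after the sequences had been seen. The first 3 stretches are the 250 bases before the start, and the last is 29 bases around the match, since GENCODE places exons of Il1r2 and Gm16894 in its window.
Il1rl1, upstream start, chr1:40429320-40429569: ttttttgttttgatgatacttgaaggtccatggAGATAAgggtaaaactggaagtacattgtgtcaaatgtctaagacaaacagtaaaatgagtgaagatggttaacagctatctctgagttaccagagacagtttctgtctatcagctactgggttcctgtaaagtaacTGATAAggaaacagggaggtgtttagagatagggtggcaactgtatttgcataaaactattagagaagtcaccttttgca
Il18rap, chr1:40515112-40515361: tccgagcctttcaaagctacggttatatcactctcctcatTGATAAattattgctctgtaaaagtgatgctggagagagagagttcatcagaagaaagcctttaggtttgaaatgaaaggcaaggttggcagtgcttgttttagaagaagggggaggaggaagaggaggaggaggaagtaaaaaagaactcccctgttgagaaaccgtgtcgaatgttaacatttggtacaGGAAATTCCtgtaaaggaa
Il1rl2, chr1:40324339-40324588: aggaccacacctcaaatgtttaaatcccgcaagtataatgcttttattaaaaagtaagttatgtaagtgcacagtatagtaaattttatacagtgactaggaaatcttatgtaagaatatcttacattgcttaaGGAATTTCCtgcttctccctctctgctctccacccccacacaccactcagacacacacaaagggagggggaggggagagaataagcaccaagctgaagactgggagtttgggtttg
Il1r2, chr1:40085977-40086005: gctttttcaaGGAACTTCCgactactctg

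The GGAANTTCC motif was present in 0.813% of the 32851 windows of 250 bases in the RefSeq table. Among the members its windows held it at Il18rap, at Il1rl2 and at Il1r2, where it overlaps a match to TTCNNNGAA, the letters of STAT sites (7.02% of windows). TTCNNNGAA also stood at 2 places before 1 of the starts of Il18r1. A GATA match was present in 16.6% of all windows, and in those of Il1r2, Il18rap and both listed starts of Il1rl1, which has 2 matches before its upstream start. No window of Il1r1, Il18r1 or Il1rap held either motif. GGAANTTCC stood before Il18rap and Il1r2, and also before Il1rl2, whose level was near 0. Whether this motif bears on the level of any of them was not tested. Also searched were TGANTCA (AP-1, 6.75% of windows), GGTGTGA (T-box, 3.33%), TGTGGT (RUNX, 14%) and CACGTG (E-box, 6.02%), of which RUNX matches stood before Il1rl2 and the downstream start of Il1rl1, and E-box matches before Il1r2. A match is a description of the letters and no evidence of binding.

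Il1rl1, Il18r1, Il18rap and Il1r2 each had more reads in Csnk2b-deficient than in WT Tregs in both tissues. In splenic Tregs the fold was between 2.99 and 4.86, and in tLN Tregs between 3.56 and 8.18. Il1r1 and Il1rl2 stayed at or below 1.52 CPM in every library, and Il1rap had close values in the splenic pair. In bulk RNA, more cells with a transcript and more transcript per cell cannot be told apart. A higher value in both tissues was found in 27.5% of the 11113 genes tested. At an adjusted p below 0.05 edgeR called 14 genes higher, which is 0.126% of those tested, or 0.144% with the 2 called lower. The members were chosen by this contrast, so their own calls are not given. A log2 ratio above 1 in both tissues was found in 1.34% of the genes tested, and these 4 members are among them.

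**Figure D1:**
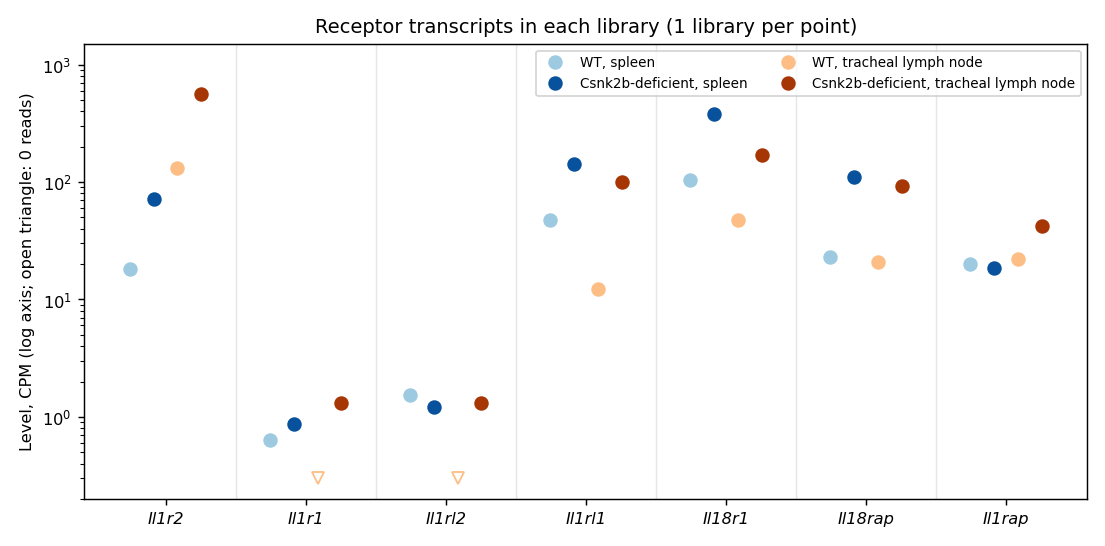
Level of each receptor gene in CPM (log axis) in each of the 4 libraries, with 1 point per library and an open triangle for 0 reads. Il1r2, Il1rl1, Il18r1 and Il18rap are higher in the Csnk2b-deficient library of each tissue, while Il1r1 and Il1rl2 lie at or below 1.52 CPM throughout.

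Il1rl1, the interleukin-33 receptor chain, had 375 exon reads (47.6 CPM) in WT and 821 reads (142 CPM) in Csnk2b-deficient splenic Tregs. Its tLN libraries had 50 reads (12.2 CPM) in WT and 456 reads (99.97 CPM) in Csnk2b-deficient Tregs. Both Csnk2b-deficient libraries lay above both WT libraries, and the lowest value was that of WT tLN Tregs. The fold was 2.99 in splenic Tregs (95% exact binomial interval 2.64 to 3.38) and 8.18 in tLN Tregs (6.10 to 11.2). These intervals do not overlap, but they cover counting error only, and whether the change differed between tissues could not be tested with 1 pair each. On the log2 scale the joint change was 2.24 ± 0.36 (SE, n = 2 per genotype). With genotype alone in the model it was 3.33 without WT replicate 1 and 1.37 without WT replicate 2.

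The reads of Il1rl1 in the tLN libraries seldom crossed exon boundaries. Exon-exon reads made up 9.07% and 9.14% of its exon reads in WT and Csnk2b-deficient splenic Tregs. In tLN Tregs they were 0 of 50 reads in WT, which allows a share of up to 6.00%, and 9 of 456 reads (1.97%) in Csnk2b-deficient Tregs. Over all genes the share was 18.5% to 19.6% in the 4 libraries, above that of Il1rl1 in each. Low shares in tLN libraries were not limited to Il1rl1, but not every member had them. Il18rap had 2 of 86 reads (2.33%) in WT tLN Tregs but 33 of 425 (7.76%) in Csnk2b-deficient tLN Tregs. In splenic Tregs its shares were 10% and 7.49%. Il18r1 had 11.3% and 11.9% in splenic and 10.8% and 16.9% in tLN Tregs. Stat5b, looked at after its values were seen, had 18.1% and 19.9% in splenic but 3.82% and 3.00% in tLN Tregs. The table gives Il1rl1 an exon length of 6894 bases over 5 transcripts as 1 row, so membrane-bound and soluble forms of ST2 are not separated.

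Il18r1, the ligand-binding chain for interleukin-18, was the most abundant member per length in splenic Tregs. It had 822 reads (104 CPM) in WT and 2181 reads (377 CPM) in Csnk2b-deficient splenic Tregs. In tLN Tregs the numbers were 195 reads (47.7 CPM) and 775 reads (170 CPM). Each Csnk2b-deficient library again exceeded both WT libraries. The fold was 3.62 (3.34 to 3.93) in splenic Tregs and 3.56 (3.04 to 4.19) in tLN Tregs, with a joint log2 fold change of 1.84 ± 0.22 (SE, n = 2 per genotype). With genotype alone in the model it was 2.55 without WT replicate 1 and 1.14 without Csnk2b-deficient replicate 1.

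Il18rap, the accessory chain that completes the interleukin-18 receptor, had close levels in both tissues. Its level was 22.8 CPM in WT spleen (180 reads) and 21.0 CPM in WT tLN Tregs (86 reads). In Csnk2b-deficient Tregs it was 111 CPM in splenic Tregs (641 reads) and 93.2 CPM in tLN Tregs (425 reads). Thus the 2 WT libraries lay close together and well below the Csnk2b-deficient ones. The fold was 4.86 (4.11 to 5.76) and 4.43 (3.51 to 5.66), and jointly 2.22 ± 0.29 on the log2 scale (SE, n = 2 per genotype). Per kilobase of exon, the level of Il18rap was 0.155 and 0.208 of that of Il18r1 in WT and Csnk2b-deficient splenic Tregs, and 0.312 and 0.388 in tLN Tregs. The binding chain was therefore the more abundant transcript of the pair in all 4 libraries.

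Il1r2, the decoy receptor for interleukin-1, had 143 reads (18.1 CPM) in WT and 418 reads (72.3 CPM) in Csnk2b-deficient splenic Tregs. Its tLN libraries had 540 reads (132 CPM) in WT and 2556 reads (560 CPM) in Csnk2b-deficient Tregs. Here both tLN libraries lay above both spleen libraries, so WT tLN Tregs had more than Csnk2b-deficient splenic Tregs. Within each tissue the Csnk2b-deficient library was higher, by 3.99 (3.29 to 4.85) in splenic Tregs and by 4.25 (3.87 to 4.67) in tLN Tregs. On the log2 scale the joint change was 2.04 ± 0.22 (SE, n = 2 per genotype). With genotype alone in the model it was 1.28 without WT replicate 1, 2.91 without Csnk2b-deficient replicate 1, 4.15 without WT replicate 2 and -0.0038 without Csnk2b-deficient replicate 2. Gm16894, which GENCODE annotates as antisense, overlaps the start of Il1r2. It had 4 and 8 reads in splenic and 8 and 18 reads in tLN Tregs (WT and Csnk2b-deficient). Its folds of 2.73 (0.731 to 12.4) and 2.02 (0.835 to 5.36) had intervals on both sides of 1. The folds of its intron reads were 2.41 (1.17 to 5.19) and 12.1 (3.04 to 105). No source used here states if strand entered the counting.

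Il1r1, the signalling receptor for interleukin-1, had 5 reads in each spleen library, 0 in WT and 6 in Csnk2b-deficient tLN Tregs. Its level was 0.634 and 0.865 CPM in splenic Tregs and at most 1.32 CPM in tLN Tregs. The decoy was thus far more abundant than the signalling receptor for the same ligand: per kilobase of exon the level of Il1r2 was 108 and 316 times that of Il1r1 in WT and Csnk2b-deficient splenic Tregs, and 1611 times in Csnk2b-deficient tLN Tregs. Il1rl2, the interleukin-36 receptor chain, had 12 and 7 reads in splenic Tregs and 0 and 6 reads in tLN Tregs (WT and Csnk2b-deficient). For both genes the tLN fold, with 6 against 0 reads, was 1.79 when the library at 0 was set to a limit of 3 reads, and the lower end of its exact binomial interval was 1.06. The intron reads of Il1rl2 ran the other way, with 22 in WT and 6 in Csnk2b-deficient tLN Tregs. In splenic Tregs the folds of 1.36 (0.314 to 5.93) for Il1r1 and 0.796 (0.265 to 2.19) for Il1rl2 had intervals on both sides of 1, so a difference was not detectable at this depth.

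Il1rap, the accessory chain shared by the receptors for interleukin-1, interleukin-33 and interleukin-36, had no higher level in Csnk2b-deficient than in WT splenic Tregs. It had 159 reads (20.2 CPM) in WT and 108 reads (18.7 CPM) in Csnk2b-deficient splenic Tregs, a fold of 0.926 (0.719 to 1.19). In tLN Tregs it had 90 reads (22.0 CPM) and 193 reads (42.3 CPM), a fold of 1.92 (1.49 to 2.499). So 3 libraries lay within 18.7 to 22.0 CPM and the Csnk2b-deficient tLN library lay above them. Only 45.6% of its exon reads were uniquely placed, compared with 99.8% to 100% for the other members. Uniquely placed reads numbered 59 and 45 in splenic Tregs and 72 and 75 in tLN Tregs, and on these the tLN log2 ratio was -0.10 in place of 0.93. Per kilobase of exon, the level of Il1rap was 0.257 of that of Il1rl1 in WT and 0.0798 in Csnk2b-deficient splenic Tregs, and 1.09 and 0.257 in tLN Tregs.

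Intron reads, counted as gene reads minus exon reads, gave folds near those of the exon reads for Il1r2, Il1rl1, Il18r1 and Il18rap. For Il18r1 they numbered 492 in WT and 1300 in Csnk2b-deficient splenic Tregs, a fold of 3.60 (3.25 to 4.01). In tLN Tregs the 62 and 272 intron reads of Il18r1 gave a fold of 3.94 (2.98 to 5.27). The intron fold was 4.26 (3.51 to 5.21) and 3.38 (1.95 to 6.15) for Il18rap, and for Il1r2 it was 4.09 (2.89 to 5.89) and 4.44 (3.10 to 6.50), in spleen and tLN. For Il1rl1 the spleen fold was 3.18 (2.34 to 4.38), and the tLN libraries had 0 and 16 intron reads. For Il1rap the intron fold was 1.26 (0.875 to 1.81) and 1.34 (1.02 to 1.75). For Il1rl2 it was 2.05 (0.860 to 5.09) and 0.245 (0.0811 to 0.622), from 10 and 15 reads and from 22 and 6 reads, while Il1r1 had 2 to 4 intron reads. The interval of the intron fold held the fold of the exon reads for Il1r2, Il18r1 and Il18rap in both tissues and for Il1rl1 in splenic Tregs. It did not hold that of Il1rap in tLN Tregs or that of Il1rl2 in splenic Tregs. These reads come from the same libraries and are no independent evidence. Exon-exon reads gave folds of 3.62 (2.53 to 5.26) and 4.54 (3.76 to 5.51) for Il1r2 and of 3.81 (3.00 to 4.89) and 5.60 (3.51 to 9.34) for Il18r1. For Il18rap they were 3.64 (2.08 to 6.64) and 14.8 (3.79 to 127), the last from 2 and 33 reads.

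**Figure D2:**
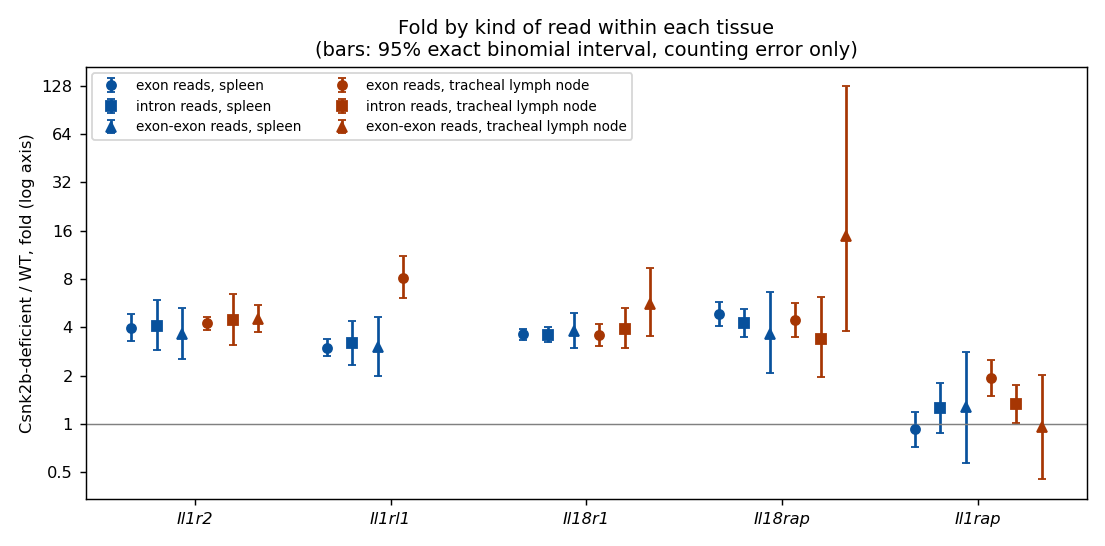
Fold of Csnk2b-deficient over WT within each tissue (log axis) for exon reads (circles), intron reads (squares) and exon-exon reads (triangles), with 95% exact binomial intervals that cover counting error only. Exon and intron folds lie near 3 to 5 for Il1r2, Il18r1 and Il18rap in both tissues and near 1 to 2 for Il1rap, the exon-exon folds of Il18r1 and Il18rap in tLN Tregs are 5.60 and 14.8 with wide intervals, and the exon fold of Il1rl1 is 2.99 in splenic Tregs and 8.18 in tLN Tregs.

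The difference between tissues was not used to choose the members and was tested with the tissue term of the same edgeR quasi-likelihood fit (n = 2 libraries per tissue). At an adjusted p below 0.05, 45.4% of all genes tested were called, 23.3% higher and 22.2% lower in tLN Tregs. Among the 5 members that passed the filter 3 were called, and a call by tissue was thus common among all genes too. Il1r2 was higher in tLN Tregs, with a log2 fold change of 2.91 ± 0.23 (SE, edgeR adjusted p = 4.42e-06), and with folds of 7.28 in WT and 7.75 in Csnk2b-deficient Tregs. Il18r1 was lower by the same test, at -1.14 ± 0.22 (edgeR adjusted p = 0.00128), with folds of 0.457 and 0.450. Il1rl1 was also called lower, at -1.16 ± 0.35 (edgeR adjusted p = 0.0192), but its fold was 0.257 in WT and 0.704 in Csnk2b-deficient Tregs. Il18rap, at -0.19 ± 0.28, and Il1rap, at 0.66 ± 0.43, were not called (edgeR adjusted p = 0.612 and 0.231). Il18r1 and Il18rap lie 14507 bases apart, and the difference between their tissue values was not tested. All 3 calls were lost when the genotype term was left out (adjusted p = 0.0619 for Il1r2, 0.315 for Il18r1 and 0.587 for Il1rl1), and each was lost when any 1 library was left out together with that term. The tissue value then turned to 0.21 for Il1rl1 and 0.030 for Il18r1 without Csnk2b-deficient replicate 1, and to 0.11 for Il1rl1 without WT replicate 2. For Il1r2 it was 1.52 without Csnk2b-deficient replicate 2 and 4.22 without Csnk2b-deficient replicate 1. The labels name 2 RNA and library kits, each for a pair of libraries, and in the order of listing the kits follow the tissues, so tissue and kit cannot be told apart.

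The order of the members by level differed between the tissues. Per kilobase of exon in splenic Tregs, Il18r1 led with 21.8 CPM per kb in WT and 78.9 in Csnk2b-deficient Tregs, ahead of Il1r2 (13.6 and 54.1), Il1rl1 (6.90 and 20.6), Il18rap (3.38 and 16.4) and Il1rap (1.78 and 1.64). In tLN Tregs Il1r2 led with 98.7 and 419 CPM per kb, ahead of Il18r1 with 9.97 and 35.6. Il18rap (3.11 CPM per kb), Il1rap (1.94) and Il1rl1 (1.77) followed in WT, and in Csnk2b-deficient tLN Tregs Il1rl1 (14.5) and Il18rap (13.8) lay close together, ahead of Il1rap (3.72). With 1 library per condition these orders have no measured spread.

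Neighbouring genes on chromosome 1 were listed by position, within 500 kb of the ends of the cluster. Of 10 such neighbours 4 had 0 reads in all libraries, among them Slc9a4 and Slc9a2, sodium-proton exchanger genes next to Il18rap, and only Map4k4 and Mfsd9 passed the filter. Map4k4, a kinase gene before Il1r2, had 233 and 210 CPM in splenic Tregs and 71.9 and 46.3 CPM in tLN Tregs (WT and Csnk2b-deficient), a log2 fold change of -0.38 ± 0.24 (edgeR adjusted p = 0.89, n = 2 per genotype). Mfsd9, a transporter-like gene beyond the cluster, had 4 to 26 reads and a log2 fold change of -0.16 ± 1.36 (edgeR adjusted p = 0.993). Neither passed the test. Gm16894, which did not pass the filter, had more reads in the Csnk2b-deficient library of each tissue. Along the chromosome, Il1r1 and Il1rl2, nearly without reads, separate Il1r2 from the run of Il1rl1, Il18r1 and Il18rap.

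**Figure D3:**
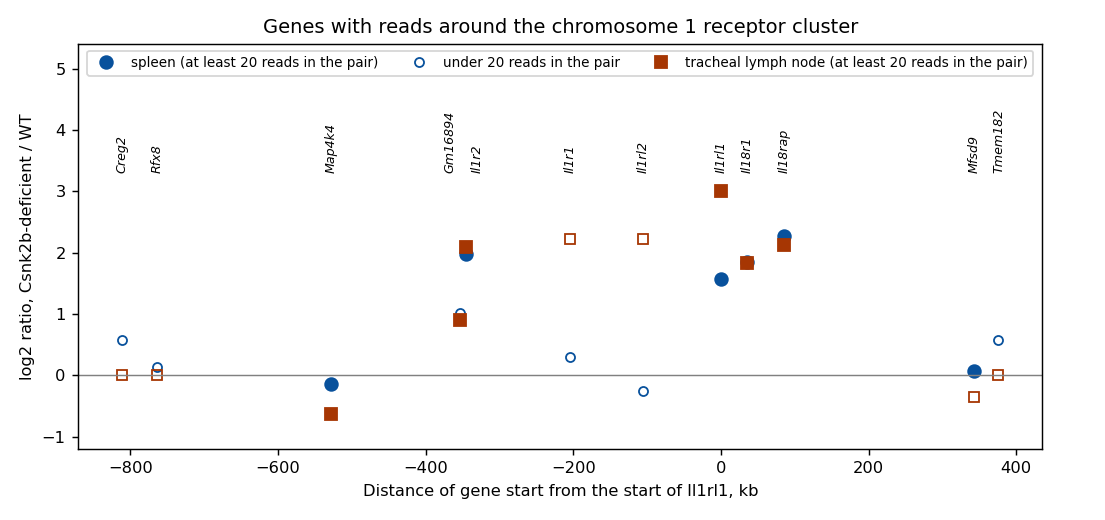
log2 ratio of Csnk2b-deficient over WT for each gene with reads within 500 kb of the chromosome 1 cluster, against the distance of its start from that of Il1rl1 in kb, in spleen (circles) and lymph node (squares), with filled points for at least 20 reads in the pair. Il1r2, Il1rl1, Il18r1 and Il18rap have values above 1.5 in both tissues, and Map4k4 lies below 0 in both.

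Genes that act with these receptors were counted in 7 lists, which held 79 genes of the tables besides the members. Of these, 67 passed the filter and 2 rose at an adjusted p below 0.05 over all genes tested by edgeR, 0 fell, and 10 had an unadjusted p below 0.05, beside 542 of all 11113 genes. The background is 0.126% of genes called higher and 0.018% called lower. The median log2 fold change of the 67 was -0.010, beside 0.0087 over all 11113 genes. The lists were drawn up with earlier results of these libraries known.

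Among the ligands, antagonists and binding proteins, 6 of 11 had 0 reads in all libraries, including Il1b, and Il1a had at most 1 read. The 3 that passed the filter did not pass the test in edgeR, DESeq2 or limma-voom, and 0 had an unadjusted edgeR p below 0.05: Il1rn, the interleukin-1 receptor antagonist, at -0.37 ± 1.02, Il18 at 0.19 ± 1.22 and Il18bp, which binds interleukin-18, at -0.49 ± 0.74 on the log2 scale (SE, n = 2 per genotype). The inhibitory family receptor Sigirr had 135 and 149 CPM in splenic Tregs and 211 and 254 CPM in tLN Tregs, with a log2 fold change of 0.21 ± 0.21 (edgeR adjusted p = 0.908). The other family receptors, Il1rapl1 and Il1rapl2, had 0 reads.

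Of the 4 measured genes that process these ligands, 1 rose. Casp1, the protease that cleaves interleukin-1 beta and interleukin-18, had 43.1 and 132 CPM in splenic Tregs and 75.3 and 210.5 CPM in tLN Tregs. Its log2 fold change was 1.55 ± 0.24 (edgeR adjusted p = 0.0367), and the call was kept in 3 of 12 alternative fits. The related caspase gene Casp4 had 43.0 and 112 CPM in splenic Tregs and 6.60 and 178 CPM in tLN Tregs, with a log2 fold change of 2.83 ± 0.85 that was not called (edgeR adjusted p = 0.89). Pycard, the inflammasome adaptor, and Gsdmd, the pore-forming target of these caspases, were also not called, at -0.037 ± 0.23 and -0.17 ± 0.26.

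Downstream of the receptors, edgeR called 0 of 21 adaptor and kinase genes, 1 gene having an unadjusted p below 0.05, and their median log2 fold change was -0.036. Their values ran from -1.17 to 1.04. In both tissues 2 genes were higher, beside 27.5% of all genes tested. Another 6 were lower in both, a direction whose share over all genes was not counted. The ubiquitin ligase gene Peli1 had 0.030 ± 0.20, the kinase gene Ikbkb -0.15 ± 0.20, the TAK1-binding protein gene Tab2 -0.066 ± 0.21 and the ubiquitin-conjugating enzyme gene Ube2n 0.27 ± 0.25 (SE, n = 2 per genotype), with 19.04% of the Ube2n reads uniquely placed. Myd88, which links all these receptors to the kinases, was named outside the rule and had -0.036 ± 0.27. The 11 NF-kappaB genes likewise gave 0 edgeR calls, 1 unadjusted p below 0.05 and a median of -0.060. They ran from -0.78 to 0.35, with 2 genes higher in both tissues, beside the same 27.5%, and 5 lower, again without a share over all genes. Nfkb1 had -0.060 ± 0.19, the inhibitor genes Nfkbia and Nfkbiz -0.23 ± 0.21 and 0.014 ± 0.23, and the feedback inhibitor gene Tnfaip3 0.35 ± 0.25. DESeq2 and limma-voom also called 0 genes of both lists.

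Of 14 transcription factors with reported roles at these receptor genes in T cells, the count called by edgeR was 0, 1 gene had an unadjusted p below 0.05, and the median log2 fold change was 0.13. Stat4, which acts downstream of interleukin-12, had 0.38 ± 0.21, Stat5b -0.52 ± 0.24, Stat6 0.044 ± 0.19 and the Helios gene Ikzf2 0.014 ± 0.16 (SE, n = 2 per genotype). DESeq2 and limma-voom called 0 of these factors as well. Gata3, named outside the rule because it is known to drive Il1rl1 in T helper 2 cells and Tregs, had 117 and 157 CPM in splenic Tregs and 131 and 137 CPM in tLN Tregs, with 0.25 ± 0.23 (edgeR adjusted p = 0.895).

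Among 13 measured genes known from Tregs that carry the interleukin-33 receptor, 1 rose, 0 fell, and 5 had an unadjusted p below 0.05, with a median log2 fold change of 0.52. The values ran from -1.12 to 2.76. In both tissues 8 of these genes were higher and 1 was lower, beside 27.5% of all genes tested that were higher in both. Itgae, the CD103 chain that binds E-cadherin, rose by 2.24 ± 0.21 (edgeR adjusted p = 0.002365). Icos had 0.42 ± 0.22, Tigit 0.88 ± 0.26, Maf 0.21 ± 0.19 and Tnfrsf9 -0.22 ± 0.18 (SE, n = 2 per genotype), none of which passed the edgeR test, although Tigit was called with no filter. Ahr and Gzmb, which encodes granzyme B, were named after their values were seen. Their log2 fold changes of 1.90 ± 0.33 and 2.76 ± 0.67 did not pass (edgeR adjusted p = 0.0747 and 0.36), but DESeq2 and limma-voom called both. Amphiregulin, a product of such Tregs, was looked at after its values were seen: Areg had 13 and 49 reads in splenic Tregs and 0 and 5 in tLN Tregs, and did not pass the filter.

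**Figure D4:**
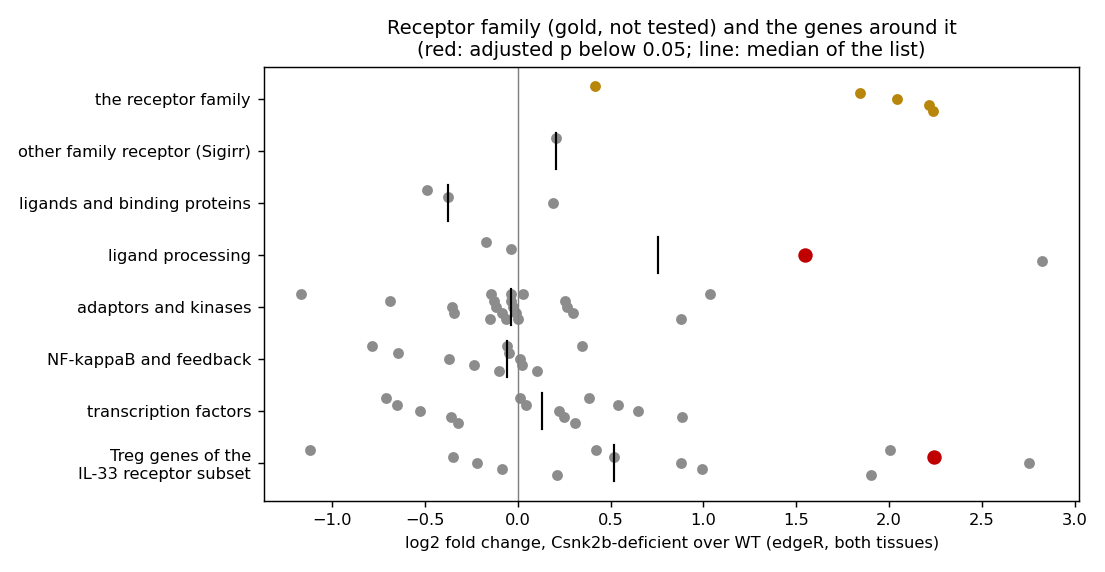
log2 fold change of Csnk2b-deficient over WT Tregs (edgeR, both tissues) for the receptor genes that passed the filter (gold, not tested) and for the 7 lists of genes around them (grey, with red for an adjusted p below 0.05 and a line at the median). Casp1 and Itgae are the called genes, and the medians of the adaptor and NF-kappaB lists are -0.036 and -0.060.

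The genes whose pattern over the 4 libraries was most like that of each member were found by Euclidean distance between log2 CPM values centred on their mean, as a description. Those nearest to Il1rl1 were Myadm (distance 0.218), Abhd12b (0.363) and Smpdl3b (0.430), and those nearest to Il18r1 were Slc15a3 (0.445), Abca5 (0.453) and Dscam (0.506). Il18rap was nearest to Gm8237 (0.249), to the aryl hydrocarbon receptor gene Ahr (0.459) and to Lrrk1 (0.540). For Il1r2 they were Gm20429 (0.627), Cldn25 (0.743) and the transcriptional inhibitor gene Id2 (0.854), and for Il1rap Scaper (0.0712), Psat1 (0.0914) and Stx7 (0.0983). The pattern of Il1rap rests on total exon reads, 45.6% of them uniquely placed. Its tLN log2 ratio of 0.93 was -0.10 on uniquely placed reads. Among the nearest genes, Ahr had 24.1 and 74.6 CPM in splenic Tregs and 17.6 and 80.7 CPM in tLN Tregs. Several of the others had under 20 reads in a library. In WT tLN Tregs Myadm had 6 reads, and Abhd12b and Smpdl3b had 0. Between members the distance was 0.854 for Il1rl1 and Il18r1, 1.02 for Il18r1 and Il18rap, and 4.17 for Il1r2 and Il1rl1. Of the genes tested, 42 lay nearer to Il1rl1 than Il18r1 did, and 56 lay nearer to Il18r1 than Il18rap did. For Il1r2, 6950 genes lay nearer than Il1rl1.

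Some of these receptors are also high on cells other than Tregs. Mast cells and basophils carry Il1rl1, and 5 of their 9 markers (Mcpt8, Fcer1a, Cma1, Tpsb2 and Mcpt4) had 0 reads in all libraries. The list summed to 4.19 and 4.32 CPM in WT and Csnk2b-deficient splenic Tregs, and to 1.96 and 8.77 CPM in tLN Tregs, where Ms4a2, its highest gene, had 5 and 24 reads. Neutrophils carry Il1r2, and 6 of their 8 markers, S100a8, S100a9 and Ly6g included, had 0 reads, with sums of 7.99 and 6.40 CPM and of 0 and 3.07 CPM. Natural killer cells carry the interleukin-18 receptor, and Ncr1 and Klra8, 2 of 5 markers, had 0 reads. Their list summed to 9.89 and 4.67 CPM and to 1.22 and 10.7 CPM, mostly from Klrb1c, with 5 and 32 reads in the tLN pair, and Eomes, with 0 and 15 reads. The sums of these lists were higher in the Csnk2b-deficient tLN library than in the WT one, as were Il1r2, Il1rl1, Il18r1 and Il18rap. Other lists were lower there: CD8 T cell (52.5 and 39.0 CPM), B and plasma cell (148 and 135 CPM) and eosinophil markers (12.0 and 6.58 CPM). Stromal and endothelial markers were higher (224 and 249 CPM in WT and Csnk2b-deficient tLN Tregs). Myeloid markers, with 3 to 8 of 9 detected, summed to 13.2 and 13.0 CPM in splenic Tregs and to 57.4 and 314 CPM in tLN Tregs (WT and Csnk2b-deficient), and Lyz2, a lysozyme gene, made up 283 CPM of the last. The part of all these markers in the tLN values was not tested. Summed markers of innate lymphoid cells type 2 were 137 and 222 CPM in splenic Tregs and 127 and 150 CPM in tLN Tregs. This sum was thus higher in the Csnk2b-deficient library of both tissues. Most of it was Rora, which Tregs also express, while Il13 and Il5 had at most 2 reads. Whether such cells bear on the receptor values was not tested.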

How the data were processed

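The 4 deposited tables list raw counts of reads per gene (exon, gene and exon-exon reads, as unique and total), per the file headers, with exon lengths and mm9 positions. The submitters' processing notes name CASAVA 1.8.2 and mm9, with the aligner, annotation and strand use not given in the sources used here. Of 37583 features, 9551 without an exon length held 0 exon reads and were left out. Total exon reads were used, of which 78.3% to 86.2% were uniquely placed.

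All genes were fitted with edgeR 4.0.16 in R 4.3.3 (filterByExpr, TMM, robust quasi-likelihood test on tissue plus genotype, Benjamini-Hochberg adjustment, threshold 0.05), and 11113 were tested. The fit leaves 1 residual degree of freedom, the difference of the genotype change between tissues, so SEs and p-values do not measure spread between like libraries or animals. The replicate number names the tissue in the labels, and the 2 libraries of a number deviated together (r = 0.783 over genes), which is the tissue term. Within-tissue folds use effective library sizes, and their 95% exact binomial intervals and the limits of 3 counts cover counting error only. Log2 ratios use a prior count of 2.

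Alternatives were median-of-ratios and upper-quartile scaling, no filter, a filter at 5 CPM, DESeq2 1.42.0, limma-voom (limma 3.58.1), uniquely placed reads, 1 factor alone, and fits without single libraries. The members, lists and naming rule were chosen with earlier results of these data known. The rule named all members, called pathway genes and up to 4 others per list by mean CPM, the 3 nearest profiles of each member with at least 5 CPM, and neighbours that passed the filter. Genes named outside it are marked.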

Additional observations from a re-analysis of the deposited data

Results flagged for a closer look

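The log2 ratios of Il1rl2 and Il1rap, taken between the 2 libraries of a tissue, had opposite signs in the 2 tissues. Neither difference was tested, since each tissue has 1 library per genotype. Il1rl2 had a log2 ratio of Csnk2b-deficient over WT of -0.26 in splenic and 2.22 in tLN Tregs, from 12 and 7 reads and from 0 and 6 reads. Il1rap had -0.11 in splenic and 0.93 in tLN Tregs. With uniquely placed reads alone the values of Il1rap were 0.055 and -0.097, the reverse of both signs. The counting intervals of both splenic folds lie on both sides of 1, so no change in splenic Tregs was shown. The intron reads of Il1rl2 had the reverse signs, with folds of 2.05 and 0.245.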

How the results depend on the processing

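By genotype 14 genes were called higher and 2 lower. Median-of-ratios size factors called 4 and 0, uniquely placed reads 7 and 0, no filter 79 and 32, DESeq2 38 and 16, and limma-voom 39 and 21. Upper-quartile scaling and a filter at 5 CPM each called 1 lower. Without the replicate block, that is with genotype alone, 0 and 0 were called, with 17 and 12 at an unadjusted p below 0.05. The 2 pathway genes called higher, Casp1 and Itgae, became 1 with median-of-ratios factors, upper-quartile scaling, the 5 CPM filter or uniquely placed reads, 6 with no filter, 4 with DESeq2 and 4 with limma-voom, and 0 without the block. Leaving out 1 library, with 1 factor in the model, gave 0 to 1 genes higher and 0 lower by genotype, 0 pathway genes higher, 1255 to 3698 genes higher in the lymph node (2586 with all) and 931 to 4295 lower (2464 with all). By construction such a fit sets unlike tissues or genotypes against each other. It gave genotype values of Il1r2 from -0.0038 (without Csnk2b-deficient replicate 2) to 4.15 (without WT replicate 2), of Il1rl1 from 1.37 to 3.33 and of Il18r1 from 1.14 to 2.55. The tissue values of Il1r2 went from 1.52 to 4.22 and those of Il18rap, which was not called, from -1.70 to 1.29. The tissue values of Il1rl1 went from -2.99 (without Csnk2b-deficient replicate 2) to 0.11 without WT replicate 2 and 0.21 without Csnk2b-deficient replicate 1, and those of Il18r1 from -2.38 to 0.030 without the same libraries, Csnk2b-deficient replicates 2 and 1. Il1rap was called higher in the lymph node without WT replicate 2 (1.14). Of 42 values within a tissue under other prior counts or uniquely placed reads, 41 stayed within their counting interval, the exception being the lymph node value of Il1rap. Depth limits Il1r1 and Il1rl2 the most, with at most 12 reads in a library.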

Other observations

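Il33, the ligand of ST2, had 49 exon reads (12.0 CPM), all uniquely placed, in WT lymph node Tregs and 0 reads in the other 3 libraries. Prdm1, which encodes the effector factor Blimp-1, had 452 and 302 reads in WT and Csnk2b-deficient spleen Tregs, 0 in WT lymph node Tregs and 172 in Csnk2b-deficient lymph node Tregs. In the same WT lymph node library Casp4 had 27 reads, compared with 812 in the Csnk2b-deficient one. Il9r, the interleukin-9 receptor gene, had 35.1 and 48.95 CPM in splenic Tregs and 4.399 and 11.6 CPM in tLN Tregs. These genes were chosen after their values were seen, and by genotype neither Prdm1 nor Casp4 was called by edgeR (adjusted p = 0.895 and 0.89, n = 2 per genotype).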
